A study of Mus musculus with 8 samples.

Results

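Wide H3K27-me3 domains were examined in fasted mouse liver after downregulation of JMJD3. They were chosen by their measured width, as peaks of the AAV-TBG-Cre list on chromosomes 1 to 19 that spanned 5000 bp or more and overlapped at least 1 AAV-GFP peak by 1 bp or more. This selected 1571 of the 59267 peaks in the AAV-Cre list, or 2.65%. Of the 58951 AAV-Cre peaks on these chromosomes 14227, or 24.1%, overlapped an AAV-GFP peak, against 1571 of the 1598 that were at least 5000 bp wide (98.3%, 95% Wilson interval 97.6 to 98.8). Overlap was part of the selection, so nothing is read from this difference, and a wider peak also meets the other list more easily.

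The livers came from male C57BL/6 mice with a floxed JMJD3 gene. At 8 weeks of age they received either AAV-TBG-Cre, an adeno-associated virus in which the hepatocyte-specific TBG promoter drives Cre recombinase, or AAV-GFP as the control, and 12 weeks later they were fasted for 16 h. The floxed allele and the fast were thus common to both groups. Of 8 libraries, each group had 2 of H3K27-me3 ChIP and 2 of input, and the authors combined both ChIP libraries of a group into 1 peak list, so that no value per mouse exists and no difference between the viruses could be tested. Whole liver contains cells that the TBG promoter does not reach, and fewer cells of a type cannot be told apart from a weaker mark per cell. The lists hold no read counts and no expression values, so the depth is unknown and the loss of JMJD3 could not be checked in them.

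H3K27-me3 is written by the Polycomb complex PRC2 and erased by the demethylases JMJD3, encoded by Kdm6b, and UTX. It lies over genes that a cell keeps silent, and its broadest domains in differentiated cells commonly cover the genes of developmental transcription factors and their CpG islands, stretches of DNA with many CpG dinucleotides. A peak caller can break 1 such domain into several peaks. The AAV-GFP peaks that overlap a wide AAV-Cre region are called pieces below, and the part covered is the share of the bases of that region that lie inside pieces.

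To show the DNA at the strongest point of such regions, 151 bases centred on the AAV-Cre summit are printed from the + strand of GRCm38 (mm10), with CpG dinucleotides in capitals. The set was picked to span the range of part covered, and none of it overlaps an annotated untranslated region of an exon. The Sox21 and Hmx3 windows come from regions almost filled by pieces, the Isl2 window from the region with the highest fold enrichment, and the Hoxa10 and Scd3 windows from regions above 30 kb. The last 3 windows come from a Cux2 intron with a single piece, from the Nckap5 region just above the width threshold, and from a wide region of Slc36a2 that no AAV-GFP peak touched.
Sox21, coding exon, chr14:118234848-118234998, 17 CpG: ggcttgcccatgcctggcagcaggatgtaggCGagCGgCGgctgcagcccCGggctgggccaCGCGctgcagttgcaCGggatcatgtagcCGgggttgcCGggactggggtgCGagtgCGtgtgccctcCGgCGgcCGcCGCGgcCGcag
Upstream of Hmx3, chr7:131542071-131542221, 10 CpG: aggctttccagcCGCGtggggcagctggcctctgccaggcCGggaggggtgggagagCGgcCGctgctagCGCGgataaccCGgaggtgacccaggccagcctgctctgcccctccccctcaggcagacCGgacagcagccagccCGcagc
Isl2, coding exon, chr9:55542350-55542500, 14 CpG: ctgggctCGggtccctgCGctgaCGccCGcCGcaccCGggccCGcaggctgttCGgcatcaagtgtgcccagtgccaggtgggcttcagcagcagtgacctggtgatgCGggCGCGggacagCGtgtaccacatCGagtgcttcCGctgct
Hoxa10, intron, chr6:52239775-52239925, 7 CpG: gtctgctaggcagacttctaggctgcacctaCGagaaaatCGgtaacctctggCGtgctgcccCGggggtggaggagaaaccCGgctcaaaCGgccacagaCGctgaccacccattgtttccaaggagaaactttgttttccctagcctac
Between genes beside Scd3, chr19:44247494-44247644, 4 CpG: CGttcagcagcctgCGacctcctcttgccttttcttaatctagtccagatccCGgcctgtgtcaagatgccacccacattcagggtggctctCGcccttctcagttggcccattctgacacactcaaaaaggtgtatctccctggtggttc
Cux2, intron, chr5:122000549-122000699, 6 CpG: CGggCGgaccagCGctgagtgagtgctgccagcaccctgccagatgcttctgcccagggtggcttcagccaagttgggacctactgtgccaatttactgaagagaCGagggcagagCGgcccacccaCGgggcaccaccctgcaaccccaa
Nckap5, intron, chr1:126674981-126675131, 0 CpG: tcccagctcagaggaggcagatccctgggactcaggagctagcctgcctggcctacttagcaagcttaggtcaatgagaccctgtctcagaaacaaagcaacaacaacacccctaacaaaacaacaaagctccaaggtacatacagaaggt
Slc36a2, intron, chr11:55183853-55184003, 0 CpG: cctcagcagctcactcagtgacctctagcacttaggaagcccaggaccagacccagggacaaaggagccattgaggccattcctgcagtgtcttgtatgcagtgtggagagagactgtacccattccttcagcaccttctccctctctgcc

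The summit windows of the wide regions held a median of 11 CpG (interquartile range 4 to 17), against 2 (1 to 4) for all AAV-Cre peaks on chromosomes 1 to 19. At least 1 CpG was present in 95.9% of the windows of wide regions, in 86.6% of those of narrower shared peaks and in 84.0% of those of all peaks. The dinucleotide reads the same on both strands, so a single search covered them.

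The 1571 regions had a median width of 6691 bp (interquartile range 5631.5 to 8815), with 289 of at least 10000 bp, 93 of at least 15000 bp and 33 of at least 20000 bp. In sum they covered 12.6 Mb, which was 17.2% of the bases in AAV-Cre peaks on chromosomes 1 to 19 and 0.513% of these chromosomes. Their fold enrichment over the local input, as computed by the authors' peak caller, had a median of 7.76 and ranged from 2.34 to 20.7. The narrowest inside were a region of 5000 bp nearest to Rps27a, with 5 pieces and 28.7% covered, one of 5001 bp within Nckap5, with 5 pieces and 36.1%, and one of 5003 bp nearest to Amigo1, with 2 pieces and 24.1%. The widest shared peaks outside were one of 4999 bp nearest to Epcam, with 4 pieces and 26.1% covered, one of 4998 bp at Tspear, with 1 piece and 4.04%, and one of 4998 bp at Meltf, with 2 pieces and 23.4%.

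Within the wide regions the AAV-GFP signal was present as many short peaks. The regions held 8907 distinct pieces, 26.0% of the 34307 AAV-GFP peaks on chromosomes 1 to 19, and the pieces held 6.36 Mb, or 50.3% of the bases of the wide regions. The number of pieces per region had a median of 5 (interquartile range 3 to 7) and a maximum of 37, with 94 regions that held 1 piece, 169 that held 10 or more and 17 that held 20 or more. The part covered had a median of 48.1% (31.3 to 63.3) and ranged from 1.47% to 95.7%. It reached 50% in 739 regions and 90% in 10, and was below 10% in 81.

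The pieces lay close to each other and towards the middle of the region. Neighbouring pieces were a median of 249 bp apart, and 90.4% of the 7339 gaps were at most 1000 bp. From the first piece to the last, the pieces spanned a median of 77.4% of the region (interquartile range 59.5 to 90.1). When each region was divided from left to right into 10 stretches of equal length, pieces held 24.95% of the bases of the first stretch, 61.7% of those of the sixth and 26.8% of those of the last. Of the 6.28 Mb outside pieces, 3.06 Mb lay in the outer flanks and 3.22 Mb between pieces. The AAV-Cre summit was inside a piece in 1396 regions (88.9%, 95% Wilson interval 87.2 to 90.3). The selection for overlap with an AAV-GFP peak favours a high share.

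A piece had a median width of 354 bp (203 to 812.5), against 208 bp for the AAV-GFP peaks elsewhere on these chromosomes. A q-value of 0.05 or lower was reached by 66.4% of pieces and by 40.0% of the other peaks. All 57 AAV-GFP peaks of 5000 bp or more lay in wide regions. The shortest peak of the AAV-GFP list was 120 bp and that of the AAV-Cre list 300 bp, and 3866 pieces (43.4%) were shorter than 300 bp. With these left out the median fell to 3 pieces per region and the median part covered to 42.5%.

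**Figure D1:**
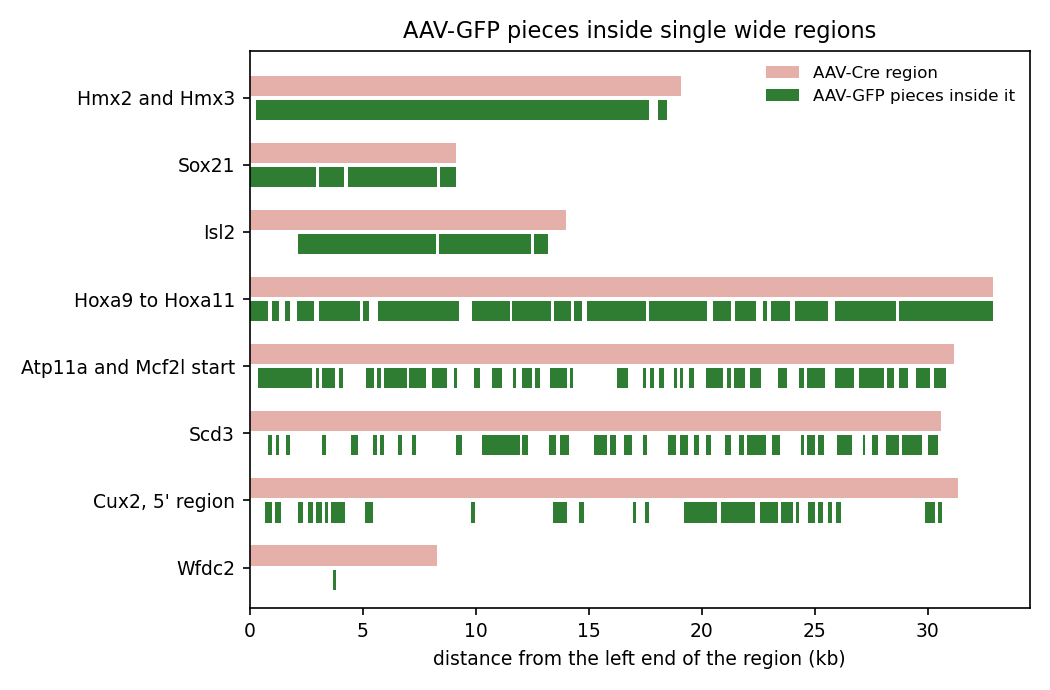
Position of AAV-GFP pieces (green) in 8 single wide AAV-Cre regions (pink), drawn to scale as distance in kb from the left end of each region. The Hmx2 and Hmx3 region held 2 pieces and was 93.1% covered, the Scd3 region held 35 pieces and was 40.6% covered, and the Wfdc2 region held 1 piece and was 1.47% covered.

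Single regions show how different these arrangements were. Sox21 encodes a SOX-family transcription factor of neural progenitors, and its region (chr14:118229454-118238579, 9126 bp) had the highest part covered, 95.7%. Its pieces were 3018, 1127, 3953 and 1139 bp wide, and the outer ones extended beyond both ends of the AAV-Cre region. Hmx2 and Hmx3, neighbouring homeobox genes of inner ear development, lay in 1 region of 19109 bp (chr7:131540200-131559308) that was 93.1% covered by 2 pieces, of 17378 and 415 bp. The first of these was the widest AAV-GFP peak on chromosomes 1 to 19. En2, a homeobox gene of the midbrain and hindbrain, had a region of 6736 bp with 3 pieces and 91.5% covered. A region of 5400 bp that began 82 bp from the start of Pcdh17, a protocadherin gene, had 3 pieces and 91.5% covered, and that of Nr4a2, which encodes an orphan nuclear receptor, had 8944 bp, 4 pieces and 91.1% covered. These 5 regions were all close to or over the start of their gene.

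At the other end were regions with 1 piece near the shortest width. Wfdc2, which encodes a secreted WAP-domain protein of epithelia, had a region of 8278 bp (chr2:164557596-164565873) with 1 piece of 122 bp and a q-value of 0.457, so that 1.47% was covered. In a region of 6585 bp within Cux2 the part covered was 1.84%, and in one of 6806 bp within Pax7 it was 1.88%. Cux2 and Pax7 both encode homeodomain transcription factors, and both regions lay inside the gene and away from its start. The remaining regions of this kind were one of 7844 bp whose nearest start site, that of Prok2, was 256321 bp away (1.86%) and one of 6439 bp inside the gene model Gm20388 (1.88%). In each of these 5 regions the AAV-Cre summit lay outside the piece.

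The regions with the highest fold enrichment were moderately to well covered. The Isl2 region (chr9:55536241-55550217, 13977 bp) had a fold of 20.7 and 3 pieces of 6130, 4106 and 612 bp, which covered 77.6%. Isl2 encodes a LIM-homeodomain factor of motor neurons. Epop, which encodes a protein that binds PRC2, had a fold of 19.97 over 9461 bp, with 8 pieces and 66.7% covered. The region over the start of Lrrc26, whose summit lay over the neighbouring Grin1, had a fold of 18.9 and 61.2% covered by 2 pieces. Dpf1, a gene of neuronal chromatin remodelling complexes, had a fold of 17.8 and 64.7% covered by 6 pieces, and a region 963 bp from Chrm4, a muscarinic acetylcholine receptor gene, had a fold of 17.4 and 59.4% covered by 3 pieces.

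Regions above 28 kb were mostly those of homeobox genes. Hoxa9, Hoxa10 and Hoxa11, which pattern the trunk and limbs along the body axis, shared a region of 32879 bp (chr6:52221875-52254753) with 20 pieces and 86.7% covered. Hoxc10 and Hoxc11 shared one of 29806 bp with 24 pieces and 58.8% covered, Hoxb4 to Hoxb6 one of 29089 bp with 26 pieces and 63.2%, and Hoxa3, Hoxa5, Hoxa6 and Hoxa7 one of 28177 bp with 17 pieces and 82.7%. Nkx2-3, a homeobox gene of gut and spleen mesoderm, had a region of 29440 bp with 24 pieces and 71.1% covered. Pax6, required for the eye and the pancreatic islets, had one of 28664 bp with 12 pieces and 85.8% covered. The Cux2 region (chr5:122028110-122059469) was 31360 bp wide, yet with 24 pieces it was covered to 30.5%.

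Some of these regions belonged to genes of other kinds. A region at chr8:12842819-12873979 was 31161 bp wide and had the most pieces, 37, with 55.7% covered. It held the start of Mcf2l, which encodes a guanine nucleotide exchange factor, but 174 of its bases lay in that gene, and its summit lay over the neighbouring Atp11a, a gene of a lipid flippase. The next region inside Mcf2l, of 28174 bp, had 29 pieces and 49.7% covered. Scd3, a gene of the stearoyl-CoA desaturase family, had a region of 30590 bp (chr19:44236016-44266605) with 35 pieces, the longest of 1651 bp, and 40.6% covered. It held a start site of Scd3, but the gene ends at chr19:44244016. Most of the region, with its summit, thus lay beyond the end of the gene. Cds1, a CDP-diacylglycerol synthase gene, had a region of 24511 bp with 26 pieces and 60.7% covered. A region of a given width could thus hold a few long pieces or many short ones.

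**Figure D2:**
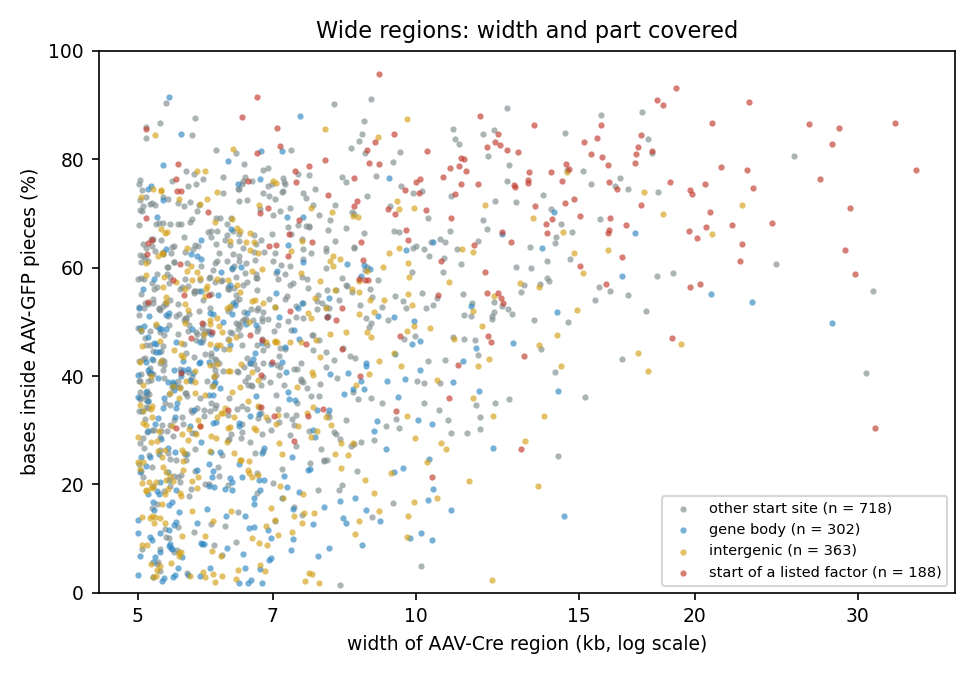
Width of each of the 1571 regions (kb, log scale) against the percentage of its bases inside AAV-GFP pieces, with 1 point per region coloured by whether it held the start of a gene from the 9 transcription factor lists, another protein-coding start site, lay in a gene body or lay between genes. The 188 regions of listed factors had a median of 70.6% covered and the 718 other start-site regions 52.0%.

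Wider regions held more pieces, and up to 20000 bp they were covered to a larger part. In the 983 regions of under 7500 bp the median was 4 pieces and 42.8% covered, in the 196 regions from 10000 to under 15000 bp it was 8 pieces and 56.8%, in the 60 regions from 15000 to under 20000 bp it was 11 pieces and 72.6%, and in the 33 regions of at least 20000 bp it was 18 pieces and 68.2%. Across the 1571 regions Spearman's rank correlation was 0.61 between width and number of pieces and 0.30 between width and part covered. Between the part covered and the −log10 p of the AAV-Cre peak it was 0.62. These coefficients are descriptions over regions of the same pooled libraries, which are no replicates.

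Start sites were the most frequent place of a wide region. A start site of a protein-coding gene was inside 906 regions (57.7%, 95% Wilson interval 55.2 to 60.1), while 302 (19.2%) lay within a gene body without a start site and 363 (23.1%) between genes. The share with a start site was 48.8% when AAV-Cre peaks within 1 kb were merged before the width was measured. Among narrower shared peaks 18.7% held a start site, and among all AAV-Cre peaks 7.38%. The start sites in wide regions belonged to 963 of 20720 protein-coding genes, or 4.65%, while 4175 genes had a start site in an AAV-Cre peak of any width. A wider region has more room for a start site, and the wide regions, with 17.2% of the bases in AAV-Cre peaks, held 963 of these 4175 genes. For 205 genes the whole gene lay inside, 67 regions held the starts of more than 1 gene and 290 of 9426 long noncoding RNA genes (3.08%) had a start site in a wide region.

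The start sites themselves were mostly marked in both lists. These regions were selected for overlap with an AAV-GFP peak, so presence in both lists is partly set by the selection. For 828 of the 963 genes (86.0%) a start site inside the wide region also lay in a piece. Regions with a start site had a median of 55.2% covered, those in gene bodies 35.8% and those between genes 40.1%, and the longest piece had a median of 2175, 893 and 1009 bp, respectively. The AAV-Cre summit was in a piece in 96.2% of regions with a start site, in 75.8% of those in gene bodies and in 81.3% of those between genes. The regions between genes were a median of 36171 bp from the nearest start site, and 106 of 363 were within 15 kb of one.

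**Figure D3:**
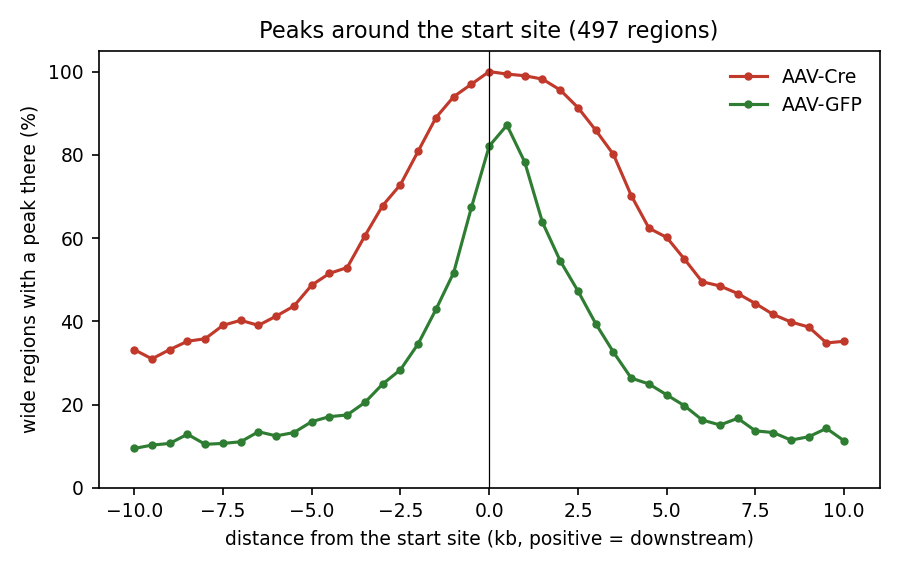
Percentage of the 497 wide regions with a single start site that had an AAV-Cre (red) or AAV-GFP (green) peak at each distance from it, in kb with downstream positive. AAV-GFP peaks were present in 82.1% at the start site and in 22.3% at 5000 bp downstream, AAV-Cre peaks in 100% by selection and in 60.2%.

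In the 497 regions with a single start site the mark reached farther into the gene than away from it. The AAV-Cre region extended a median of 2925 bp upstream (interquartile range 1763 to 4435) and 4161 bp downstream (3116 to 5980), and the downstream arm was the longer one in 330 (66.4%). AAV-GFP peaks were most frequent 500 bp downstream of the start site, where 87.1% of regions had one, against 67.4% at 500 bp upstream. At 5000 bp upstream and downstream 15.9% and 22.3% had an AAV-GFP peak and 48.7% and 60.2% an AAV-Cre peak.

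CpG content followed the pieces inside each region. The wide regions held a median of 2.46 CpG per 100 bases, narrower shared peaks 1.56, all AAV-Cre peaks 1.32 and the 27 wide peaks without AAV-GFP overlap 1.24. In the 1503 regions with at least 500 bases both inside and outside pieces, the median was 3.38 CpG per 100 bases inside and 1.40 outside, and the inside value was the higher one in 1329 (88.4%). The GC content was 55.3% inside and 48.0% outside, with the higher value inside in 1431 regions (95.2%). Bases masked as repeats were fewer inside, with medians of 10.1% and 18.2%. Around the start sites, 693 of the 963 genes (72.0%) had a start site with CpG-dense sequence, with GC above 50% and an observed to expected CpG ratio above 0.6 within 500 bp, against 50.6% of the 20720 genes. GC content thus moved with the pieces, and its part in the peak calls was not tested.

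**Figure D4:**
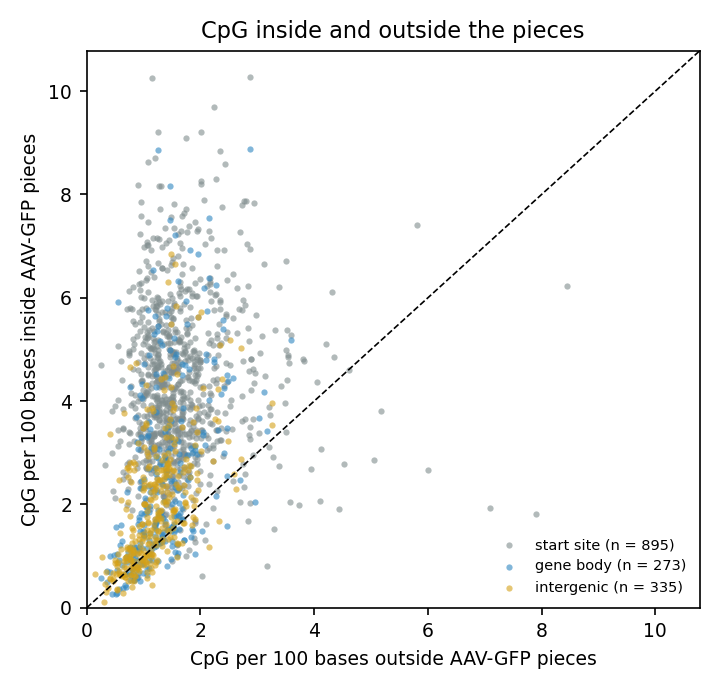
CpG dinucleotides per 100 bases outside (x axis) and inside (y axis) AAV-GFP pieces of the same wide region, with 1 point for each of 1503 regions with at least 500 bases on both sides, coloured by place. Points above the dashed line of equal density, 1329 of them, had more CpG inside the pieces.

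When the regions were ordered by part covered and divided into 4 groups of near equal size, the least covered group (1.47 to 31.3%) had a median of 1.49 CpG per 100 bases and 30.03% held a start site. In the most covered group (63.3 to 95.7%) the median was 3.18 and 81.2% held a start site. The fold enrichment of the AAV-Cre peak had medians of 5.87 and 9.63 and the width medians of 6122 and 8146 bp in these groups. The well covered regions were thus wider, stronger and richer in CpG, and the part covered and CpG content had a Spearman's rank correlation of 0.52 across the 1571 regions.

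Transcription factors of development made up a large share of the genes covered. Of 373 genes in 9 lists of transcription factor families, 201 (53.9%) had a start site in a wide region, where 4.65% of all genes did, and they accounted for 20.9% of the 963 genes. The 188 regions that held them had a median width of 11180.5 bp with 8 pieces and 70.6% covered (interquartile range 57.7 to 78.7), against 6537.5 bp, 4 pieces and 52.0% (38.0 to 63.8) for the 718 other regions with a start site. Of the 289 regions of at least 10000 bp, 109 held a listed factor, and of the 33 of at least 20000 bp, 24. The lists were written with earlier results of these data known, and their counts are descriptions.

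Genes with a homeobox formed the largest group of these factors. Of 39 Hox genes 32 were in wide regions, with a median of 72.7% covered over 21 regions, and 38 had a start site in an AAV-Cre peak of any width. Of 142 other homeobox genes 91 were in wide regions, with a median of 71.9% covered. Besides Cux2 and Nkx2-3 the widest of these was that of Barhl2, a factor of retinal and spinal neurons, with 27310 bp, 23 pieces and 76.3% covered. Dlx1 and Dlx2, which direct the formation of forebrain interneurons, shared a region of 22877 bp with 8 pieces and 90.5% covered. Of 9 paired-box genes 6 were in wide regions, among them Pax9 of the thymus and teeth (21336 bp, 12 pieces, 78.6%) and Pax2 of the kidney (14036 bp, 8 pieces, 69.0%). The Pax7 start region differed from these, with 10411 bp, 8 pieces and 21.3% covered. The region next to it, inside Pax7, had 10423 bp, 9 pieces and 64.8% covered.

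The T-box genes, which encode factors of mesoderm, heart and limb formation, were in wide regions in 9 of 16 cases, with a median of 77.9% covered. Tbx2 had 16113 bp with 5 pieces and 79.0% covered, Tbx20 13865 bp with 16 pieces and 66.4%, and Tbr1 13397 bp with 10 pieces and 86.4%. Tbx21, the T-box factor of type 1 helper T cells, was the least covered of them, at 32.6%. Of 41 forkhead genes 15 were in wide regions, with a median of 69.7%, led in width by Foxf1 (22411 bp, 15 pieces, 61.2%), Foxf2 (20779 bp, 18 pieces, 70.2%) and Foxc1 (17510 bp, 11 pieces, 71.6%), which act in mesenchyme. Of 25 GATA, Zic, Gli, Sall, Tfap2 and Ebf genes 18 were in wide regions, with a median of 66.7% covered. Zic2 and Zic5, zinc finger genes of the neural tube, shared one of 26609 bp with 13 pieces and 86.5% covered, Tfap2a, a neural crest factor, had 23106 bp with 17 pieces and 74.7%, and Gata2, a factor of blood stem cells and endothelium, had 21953 bp with 12 pieces and 67.9%.

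Other factor families were covered in part. Of 18 Sox genes 8 were in wide regions, with a median of 62.6% covered, from Sox10, a neural crest gene, at 28.1% to Sox21 at 95.7%, and Sox2, a pluripotency and neural factor, had the widest, 19736 bp with 15 pieces and 66.7%. Sox4, of progenitors in many tissues, had 8010 bp with 6 pieces and 50.9%. Of 54 lineage bHLH genes 13 were in wide regions, with a median of 70.1%. The widest were those of Olig2, an oligodendrocyte factor (19868 bp, 9 pieces, 73.6%), Tal1, a blood factor (19764 bp, 10 pieces, 56.4%) and Neurog2, a neuronal factor (16162 bp, 15 pieces, 66.9%). Of 29 Klf, Sp and Egr genes 9 were in wide regions, with a median of 65.1%, and the limb factors Sp8 (22801 bp, 17 pieces, 78.1%) and Sp9 (17484 bp, 6 pieces, 84.4%) were the widest, followed by the immediate early gene Egr3 (9802 bp, 2 pieces, 65.1%).

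**Figure D5:**
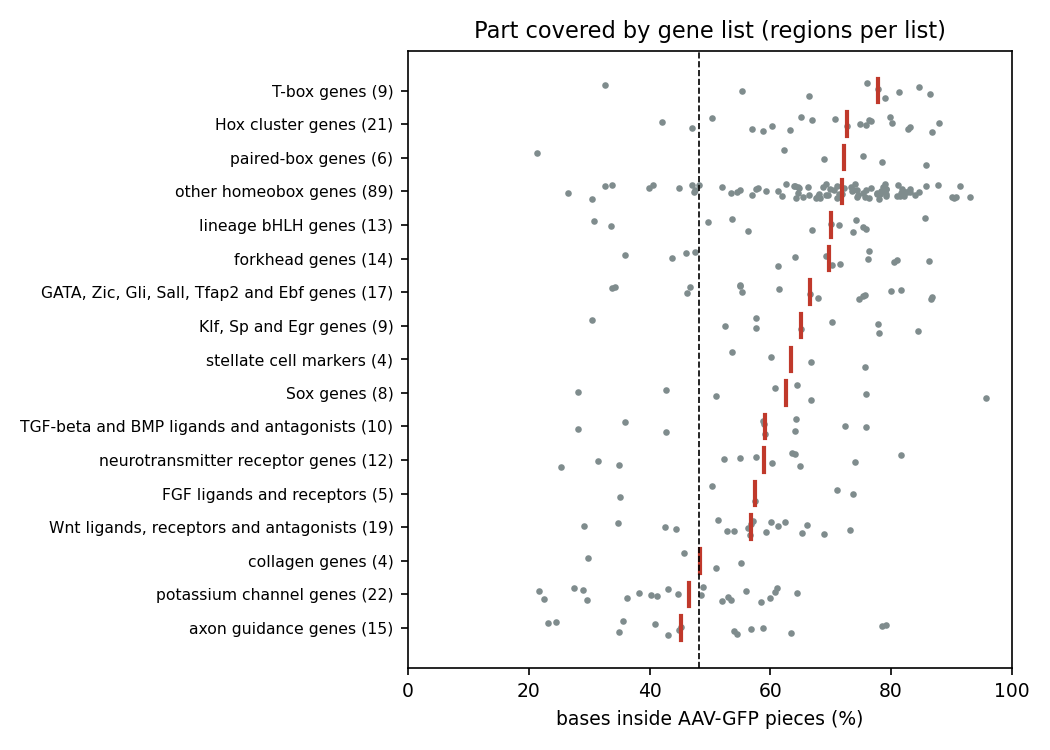
Percentage of bases inside AAV-GFP pieces for each wide region (grey points) that held the start of a gene in each list with at least 4 such regions, with the number of regions in brackets, the list median as a red bar and the median of all 1571 regions, 48.1%, as a dashed line. Medians ran from 45.2% for axon guidance genes to 77.9% for T-box genes.

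Signalling genes were also found, mostly in narrower regions. The share to set beside their counts is the 4.65% of all protein-coding genes with a start site in a wide region. Of 44 Wnt ligands, receptors and antagonists 19 were in wide regions, with a median width of 7511 bp and 56.9% covered, and the ligand genes Wnt11 (13082 bp, 5 pieces, 56.7%), Wnt1 (11806 bp, 8 pieces, 68.9%) and Wnt10b (10612 bp, 9 pieces, 65.2%) had the widest. Of 25 FGF ligands and receptors 5 were in wide regions, with a median of 57.5%. One of the 5 was Fgfr2, by a start site beside that of Ctbp2 at the far end of a gene model that runs across other genes, and without it there were 4 genes with a median of 53.97%. They included the ligand genes Fgf8 (13912 bp, 8 pieces, 57.5%), Fgf15 (12174 bp, 6 pieces, 35.02%) and Fgf9 (7544 bp, 2 pieces, 73.7%). Fgf15 is the hormone that the ileum sends to the liver to restrain bile acid synthesis. Of 40 TGF-beta and BMP ligands and antagonists 10 were in wide regions, with a median of 59.1%, led by Gdf6 (10680 bp, 7 pieces, 59.1%), Inhbb (10289 bp, 5 pieces, 42.7%) and Gdf7 (9994 bp, 3 pieces, 64.1%). Of 11 Hedgehog pathway genes the ligand gene Dhh was in one (7273 bp, 4 pieces, 67.5%).

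Genes of neurons and matrix were in wide regions in smaller shares than the Hox genes. Over all protein-coding genes the share was 4.65%, and 20.1% had a start site in an AAV-Cre peak of any width. Such a start site was present for 74 of 92 potassium channel genes and 49 of 66 axon guidance genes. It was also present for 66 of 92 neurotransmitter receptor genes and 30 of 42 collagen genes. Whether these counts differ from the shares was not tested. Of 92 potassium channel genes 22 were in wide regions, with a median of 46.6% covered, and the widest were those of Kcnj4 (18199 bp, 16 pieces, 58.5%), Kcnh3 (17703 bp, 16 pieces, 52.0%) and Kcnh2 (12124 bp, 8 pieces, 53.6%). Of 66 axon guidance genes 15 were in wide regions, with a median of 45.2%, among them the receptor gene Ephb2 (10740 bp, 8 pieces, 43.0%), the semaphorin gene Sema6a (10530 bp, 9 pieces, 54.4%) and the ligand gene Ntn1 (10208 bp, 9 pieces, 63.4%). Of 92 neurotransmitter receptor genes 12 were in wide regions, with a median of 59.0%, from Adra1d, an adrenergic receptor gene, at 25.3% over 14230 bp to Grin2d, a glutamate receptor gene, at 81.7% over 6083 bp. Adrb1, the adrenergic receptor gene of the heart, had 8181 bp with 9 pieces and 64.9% covered, and the glutamate receptor gene Grik4 7428 bp with 3 pieces and 34.9%. Of 42 collagen genes 4 were in wide regions, with a median of 48.4% covered, the widest being those of Col2a1, the main cartilage collagen (7410 bp, 8 pieces, 50.9%), Col8a2 (5998 bp, 3 pieces, 55.2%) and Col5a1 (5384 bp, 2 pieces, 29.8%).

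Among all protein-coding genes 4.65% had a start site in a wide region and 20.1% in an AAV-Cre peak of any width. At the first share few or no members of lists of 46 or 54 genes are to be found in wide regions. The second share and the longer lists leave room for more members. Whether the counts below differ from these shares was not tested. None of 54 hepatocyte genes and none of 46 autophagy genes on these chromosomes had a start site in a wide region or in an AAV-Cre or AAV-GFP peak of any width. A gene was counted only if a start site itself lay inside a peak, so peaks in its body or flanks are not covered. The study took peaks within 15 kb of a start site. After JMJD3 downregulation it reported raised H3K27-me3 at nearly all of the autophagy-related genes it named. Of 128 ribosomal protein and proteasome genes 0 were in a wide region and 1 in an AAV-Cre peak, and of 1086 olfactory receptor genes, which are silent in liver, 0 were in a wide region and 18 in an AAV-Cre peak. Of 29 Polycomb and H3K27 demethylase genes 0 were in a wide region and 5 in an AAV-Cre peak. No wide region overlapped Kdm6b itself, and the peak nearest to its start site was 7386 bp away in AAV-Cre and 51345 bp away in AAV-GFP.

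Markers of other liver cells were read against the same shares of 4.65% and 20.1%. Of 10 stellate cell markers 4 were in wide regions, namely Lhx2 (18817 bp, 8 pieces, 75.7%), Pdgfra (10879 bp, 9 pieces, 66.7%), Ngfr (8845 bp, 10 pieces, 60.1%) and Hand2 (5130 bp, 4 pieces, 53.6%), and all 10 had a start site in an AAV-Cre peak. Of 10 endothelial markers the receptor gene Kdr (5269 bp, 3 pieces, 68.1%) and the adhesion gene Pecam1 (5256 bp, 1 piece, 5.63%) were in wide regions. The Pecam1 region also held a start site of Milr1, and most of it lay upstream of Pecam1. Lhx2 and Hand2 are also in the transcription factor lists. None of 10 cholangiocyte, 9 Kupffer cell and 10 lymphocyte markers was in a wide region, although 5, 2 and 2 of them had a start site in an AAV-Cre peak. Lists this short cannot be told apart from all genes by a count of 0 in wide regions. No share of cells follows from a mark at these genes.

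The wide regions often had another AAV-Cre peak close by, and some followed each other along the chromosome. The nearest other AAV-Cre peak, of any width, was a median of 306 bp away and within 1000 bp of 1285 regions (81.8%). When wide regions up to 20 kb apart were joined, 614 of the 1571 formed 239 chains. A chain over Atp11a and Mcf2l had 8 regions of 114649 bp with 112 pieces and 43.2% covered. It held more bases and more pieces than any of the Hox chains that follow. The 10 regions of the Hoxc cluster summed to 107457 bp with 82 pieces and 57.8% covered, and the 10 of the Hoxd cluster and Evx2 to 101887 bp with 75 pieces and 70.0%. The Hoxa cluster had 6 regions of 105051 bp with 72 pieces and 78.8% covered, and the Hoxb cluster from Hoxb3 to Hoxb9 had 6 regions of 89580 bp with 82 pieces and 58.0%. Hoxb13 lay in a separate chain of 2 regions of 32996 bp with 29 pieces and 52.8% covered. The main chains of the 4 Hox clusters thus differed in the part covered while each held at least 72 pieces.

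Several genes overlapped many wide regions, and 174 genes overlapped at least 2. Igf1r, the receptor of insulin-like growth factor 1, had 9 regions that summed to 75551 bp, with 69 pieces and 42.6% covered. The region at its start was 7129 bp wide with 5.58 CpG per 100 bases and 70.4% covered, and the 8 others held 1.07 to 2.04 CpG per 100 bases and were 11.1 to 84.6% covered. Mcf2l overlapped 7 regions, and beside the one with its summit over Atp11a there were 6 of 60452 bp with 52 pieces and 32.9% covered. Creb5, a gene of a CREB-family transcription factor, had 6 of 41168 bp with 41 pieces and 42.3%. The gene models of Fgfr2 and Gm20388, which held 10 and 9 regions, are 2960900 and 4434882 bp long and run across other genes, so these regions, that of Hmx2 and Hmx3 among them, cannot be assigned to them.

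The 27 wide peaks without an AAV-GFP peak had a lower fold enrichment, with a median of 4.47 against 7.76, and 4 of them held a start site. The widest was one of 16855 bp over Slc36a2 (chr11:55173864-55190718), an amino acid transporter gene, and a second of 7426 bp lay in the same gene. The others among the 5 widest were one of 8339 bp within Ago2, a gene of RNA silencing, one of 7952 bp that was 103720 bp from the start of Irs2, and one of 6891 bp at Muc5ac, a mucin gene.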

How the data were processed

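Peak lists of H3K27-me3 ChIP-seq were used as deposited, with groups from the sample labels. Per the submitters' processing notes and the study's methods, the authors mapped reads to mm10 with BWA 0.7.13, filtered them with SAMtools 1.2 and Picard 1.126, and called peaks with MACS in the AQUAS pipeline against pooled input. Replicates were combined, so each deposited list gives 1 position, fold enrichment over input, −log10 p-value and −log10 q-value per peak, and no read counts. Folds were not compared between lists, since their scaling by depth and input is not given in the sources used here. Narrow peak calling splits broad domains, which bears directly on the number of pieces.

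Widths, overlaps and base composition were computed with Python 3.11.15, pandas 2.3.3 and pysam 0.24.0 on GRCm38 with GENCODE M21. Start sites were those of basic protein-coding transcripts. Wilson intervals of 95% are given for shares and take in counting error alone. They treat regions as independent, although many lay close together and all came from the same pooled libraries. With a single list per virus no test was possible. On simulated data 100% of 1000 regions equalled a direct search. Alternatives were other minimum widths, thresholds, merging, overlaps, chromosomes and start sites.

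The regions and the 27 gene lists were chosen with earlier results of these data known. Named were the 10 widest regions, the 5 with most pieces, the 5 with the highest and lowest part covered, the 5 with the highest fold, the 3 on either side of 5000 bp, the 5 genes holding most regions, the 5 widest without AAV-GFP overlap, the 3 genes of each list with the widest regions, and marker genes in a wide region. Genes beyond this rule (among them Dlx1, Dlx2, Gata2, Tbx21, Sox10, Grin2d, Igf2, Pkm, Scd1, Scd2 and Scd4) were chosen after their values were seen. A region that the rule selects is not reported here.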

Additional observations from a re-analysis of the deposited data

How the results depend on the processing

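No paired analysis was possible because each deposited list combines both replicates, and for the same reason leaving out each replicate could not be run. A minimum width of 4000 bp gave 2546 regions, 53.1% with a start site. A minimum of 10000 bp gave 289 regions with medians of 13094 bp and 9 pieces, 257 genes and 75.4% with a start site. The median was 3 pieces with AAV-GFP peaks of q-value 0.05 or lower, 3 with those of at least 300 bp (60.2% of regions then held a start site) and 1 when AAV-GFP peaks within 1 kb were merged, while the part covered was then 66.5%. Merging AAV-Cre peaks within 1 kb gave 3431 regions, 23.4% covered, with 1803 genes and 48.8% with a start site. With all annotated genes 64.2% of regions held a start site. In the other 52 comparisons the count or median stayed within 1.5 times the reported one, or the share with a start site within its interval. Cutting both lists to equal numbers of peaks by p-value left the values as they were, since all wide regions and all AAV-GFP peaks were among them. Leaving out gene models of at least 2 Mb, chosen after seeing the data, moved regions in gene bodies from 302 to 297. Without read counts the depth behind the pieces is unknown.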

Other observations

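Some loci, chosen after their values were seen, held wide regions at 1 member of a gene family and not at another. The stearoyl-CoA desaturase genes sit side by side on chromosome 19. Among them Scd2 had a region of 13613 bp with 14 pieces and 56.9% covered, and Scd4 one of 7664 bp with 7 pieces and 29.8%. Scd3 had the region of 30590 bp described above, most of which lay beyond the end of the gene. Scd1, the main desaturase gene of liver, had no wide region. The peak nearest to its start site was 15716 bp away in AAV-Cre and 31780 bp away in AAV-GFP. Pkm, the pyruvate kinase gene of muscle and many other tissues, had regions of 13986 bp (12 pieces, 70.8% covered) and 7538 bp (9 pieces, 69.3%). Pklr, which encodes the liver enzyme, had none, and its start site was 15668 bp from the nearest AAV-Cre peak. Cds1 had regions of 24511 and 11680 bp and Cds2 had none, with the nearest AAV-Cre peak 43399 bp away. Igf2, a fetal growth factor gene, had regions of 18266 bp (17 pieces, 74.0% covered) and 8066 bp (8 pieces, 68.7%).

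Regions with few CpG formed a small part of the set. Of the 1571 regions 163 (10.4%) held fewer than 1 CpG per 100 bases, and 103 of these lay between genes, 56 in gene bodies and 4 over a start site. They had a median of 6 pieces and 33.0% covered, and 20.6% of their bases were masked as repeats, against 13.9% over all wide regions.

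The density of wide regions differed between chromosomes, from 0.234 per Mb on chromosome 16 to 1.22 per Mb on chromosomes 11 and 19. The X chromosome, which was not part of the selection, held 315 AAV-Cre peaks, of which 6 were at least 5000 bp wide, and all 6 overlapped AAV-GFP peaks, with 30.5 to 52.9% covered.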
